A study of Arabidopsis thaliana with 30 samples.

Results

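A stretch of chromosome 2 between AT2G14290 and AT2G15140 was examined in Arabidopsis thaliana seedlings of 10 lines from a cross of the accessions C24 and Landsberg erecta (Ler). Its members were all genes of the deposited count table in that range of locus numbers, without AT2G14610, whose counts summed to at least 100 over the 30 libraries. This gave 91 members of 33498 genes in the table, and 26 of the 118 table rows in the range fell under the minimum. Just under it lay AT2G14692 with 94 counts, AT2G14340 with 90 and AT2G15130 with 89, and just above it AT2G14635 with 101, AT2G14605 with 103 and AT2G15016 with 104. The range was selected on measured levels, those of C24 against Ler and of the hybrid mimics against the other F6 lines, so the differences between the parents and between these 2 sets of lines are given as a description only.

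Of the 10 lines 2 were the parents and 2 their F1 hybrids, one for each direction of the cross (C24XLer and LerXC24). The remaining 6 were F6 lines obtained by recurrent selection, of which the labels call 3 hybrid mimics (HM-W, HM-S, HM-G). The other F6 lines were Med-E and Med-F together with Sml-D. Each line had 3 libraries from the aerial parts of untreated seedlings aged 15 days, kept at 22 °C during 16 h of light and at 18 °C during 8 h of dark. The labels call the parent and F1 libraries biological replicates and the F6 libraries siblings. They do not say whether a library came from 1 plant or a pool, and the tests cover only the spread among these libraries, which may be in part technical. Each F6 line is 1 family, and the effect of this stretch on a level cannot be told apart from that of other regions by which the lines differ.

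Inbred descendants of a cross carry long runs of DNA from one parent or the other. A gene whose parental alleles are expressed at different levels can report, in such a descendant, which allele it holds, while an F1 plant holds both. Leucine-rich repeat receptor-like proteins, a family with members in this stretch, sit in the plasma membrane with repeats outside the cell and no kinase domain inside, and members of the family act in the recognition of pathogens and in development.

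The members spanned 514 kb, from 6057288 to 6571383 on chromosome 2 of TAIR10.1. The annotation calls 45 of them protein coding, 34 pseudogenes, 10 transcribed pseudogenes and 2 non-coding RNAs. The reads came from whole shoots, in which fewer cells of a type and less RNA per cell cannot be told apart. Levels are in CPM, counts of each library scaled to one common total by its TMM-adjusted size, and are given as mean ± SD of 3 libraries. The mean over all libraries was at least 1 CPM for 43 members and lower for 48, and 84 of the 91 had enough counts to be tested. In 18 members over 50% of the gene had a match elsewhere in the reference at 95% identity or more, and 8 members overlap another counted gene, so the values of these genes are uncertain.

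Depth was similar across the lines, at 41600826 to 53397900 reads a library. The 5 genes taken as shoot markers (RBCS1A, CAB1, LHCB2.1, GL2 and KCS10) summed to between 25240 and 37830 CPM, with 54.7 to 117.3 CPM from GL2. The 5 root markers (PYK10, EXPA7, EXPA18, SHV2 and RHD6) summed to 45.8 to 258.5 CPM, with 43.9 to 255.5 CPM from PYK10, and their sum was higher in C24 (208.1 to 258.5) than in Ler (45.8 to 79.3). The other 4 root markers reached at most 1.84 CPM in any library. The part of root tissue in the results was not tested.

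Windows of sequence just upstream of 3 genes that carry the split are shown first, since RLP18 and AT2G15042 moved together across the lines and AT2G14460 had no reads in C24. Each is the 250 bases before the annotated start of the gene in RefSeq's TAIR10.1 reference, read 5′ to 3′ on the gene's strand, and is not the C24 or the Ler allele. AT2G14460 lies on the minus strand, with its window at chr2:6155167-6155416. RLP18 lies on the plus strand, with its window at chr2:6507152-6507401, and AT2G15042 follows it on the same strand, with its window at chr2:6510591-6510840. Capitals mark, on either strand, the W-box core TTGAC, which WRKY factors bind, and the motif TATAAA.
AT2G14460: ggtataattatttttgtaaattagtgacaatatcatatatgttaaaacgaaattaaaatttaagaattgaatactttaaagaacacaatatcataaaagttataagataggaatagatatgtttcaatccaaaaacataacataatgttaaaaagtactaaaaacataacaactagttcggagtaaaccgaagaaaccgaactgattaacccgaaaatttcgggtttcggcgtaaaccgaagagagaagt
RLP18: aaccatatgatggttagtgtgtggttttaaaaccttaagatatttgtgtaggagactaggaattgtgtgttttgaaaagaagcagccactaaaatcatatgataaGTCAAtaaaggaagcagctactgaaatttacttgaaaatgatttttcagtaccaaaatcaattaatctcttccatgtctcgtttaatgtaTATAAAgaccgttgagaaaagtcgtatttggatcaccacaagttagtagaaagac
AT2G15042: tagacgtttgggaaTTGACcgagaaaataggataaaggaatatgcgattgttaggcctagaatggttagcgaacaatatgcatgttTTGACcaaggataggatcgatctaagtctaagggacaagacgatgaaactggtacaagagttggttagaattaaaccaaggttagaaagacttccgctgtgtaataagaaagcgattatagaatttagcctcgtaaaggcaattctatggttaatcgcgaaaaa
The RLP18 window holds 1 W-box core, on the minus strand, and 1 TATAAA, the AT2G15042 window holds 2 W-box cores, and neither motif is in the AT2G14460 window. The G-box CACGTG and the as-1 core TGACG were searched as well, on both strands, and are in none of the 3. Of 37897 upstream windows of this length in the genome, 43.9% hold TTGAC, 44.6% TATAAA, 5.39% CACGTG and 18.1% TGACG. Among the 91 members 37 windows hold TTGAC, 45 TATAAA, 4 CACGTG and 26 TGACG.

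RLP18 and AT2G15042 were the parent-marked members with the greatest ratio of C24 to Ler. RLP18 (chr2:6507402-6509319) bears the name of a receptor-like protein and is annotated in TAIR10.1 as a transcribed pseudogene, and AT2G15042 (chr2:6510841-6512641) is annotated as a protein-coding leucine-rich repeat gene. RLP18 was at 17.5, 16.9 and 16.8 CPM in the 3 C24 libraries and at 0.446, 0.514 and 0.189 CPM in Ler. Its level was 25.4 ± 5.35 CPM in HM-W, 23.6 ± 5.27 in HM-S and 10.2 ± 1.74 in HM-G, against 0.518 ± 0.0903 in Med-E, 0.604 ± 0.0671 in Med-F and, for Sml-D, 0.484 ± 0.210. The lowest mimic library, at 8.42 CPM, was far above the highest of the other F6 libraries, at 0.713 CPM.

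AT2G15042 was at 41.4, 41.9 and 41.1 CPM in C24 and at 0.223, 0.349 and 0.189 CPM in Ler, a parental ratio of 163.5, while that of RLP18 was 44.6. The mimic libraries ran from 19.8 to 56.4 CPM with a median of 40.7, and the other F6 libraries from 0.289 to 0.988 CPM with a median of 0.450. Both genes stood at 2 well-separated sets of levels, with the 3 other F6 lines near Ler. RLP19 (chr2:6533261-6537002), a receptor-like protein gene further right, did not share this split. It was at 64.9 ± 12.3 CPM in C24 and 41.7 ± 6.92 in Ler, and the mimic libraries (44.5 to 96.9 CPM) overlapped the other F6 libraries (27.3 to 66.6 CPM).

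In the Ler direction the member with the greatest ratio was AT2G14460 (chr2:6154493-6155166), a protein-coding gene of unknown function. It had 0 counts in all 3 C24 libraries and was at 8.19, 7.47 and 8.66 CPM in Ler. Taking 3 counts over the C24 group as the floor, Ler was at least 406-fold higher. The 3 HM-S libraries also had 0 counts, the highest mimic library was at 0.0412 CPM, and the 9 other F6 libraries ran from 6.66 to 14.4 CPM. A gene that is silent in C24, one that is missing there and one whose reads did not align cannot be told apart in these counts.

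Its neighbours AT2G14475 and AT2G14490, transcribed pseudogenes that overlap each other, went the same way. AT2G14475 was at 0.510 ± 0.171 CPM in C24 and 3.42 ± 0.593 in Ler, with mimic libraries at 0.446 to 0.796 CPM and other F6 libraries at 3.13 to 6.70 CPM. AT2G14490 was at 0.173 ± 0.0203 CPM in C24 and 1.58 ± 0.347 in Ler, with mimic libraries at 0.279 to 0.647 CPM and other F6 libraries at 1.57 to 2.67 CPM. The pseudogene AT2G14796 went the C24 way, at 5.82 ± 0.514 CPM in C24 and 0.652 ± 0.0891 in Ler. Its mimic libraries ran from 3.65 to 5.23 CPM, all of them under the lowest C24 library (5.25 CPM), and its other F6 libraries from 0.519 to 0.765 CPM.

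**Figure D1:**
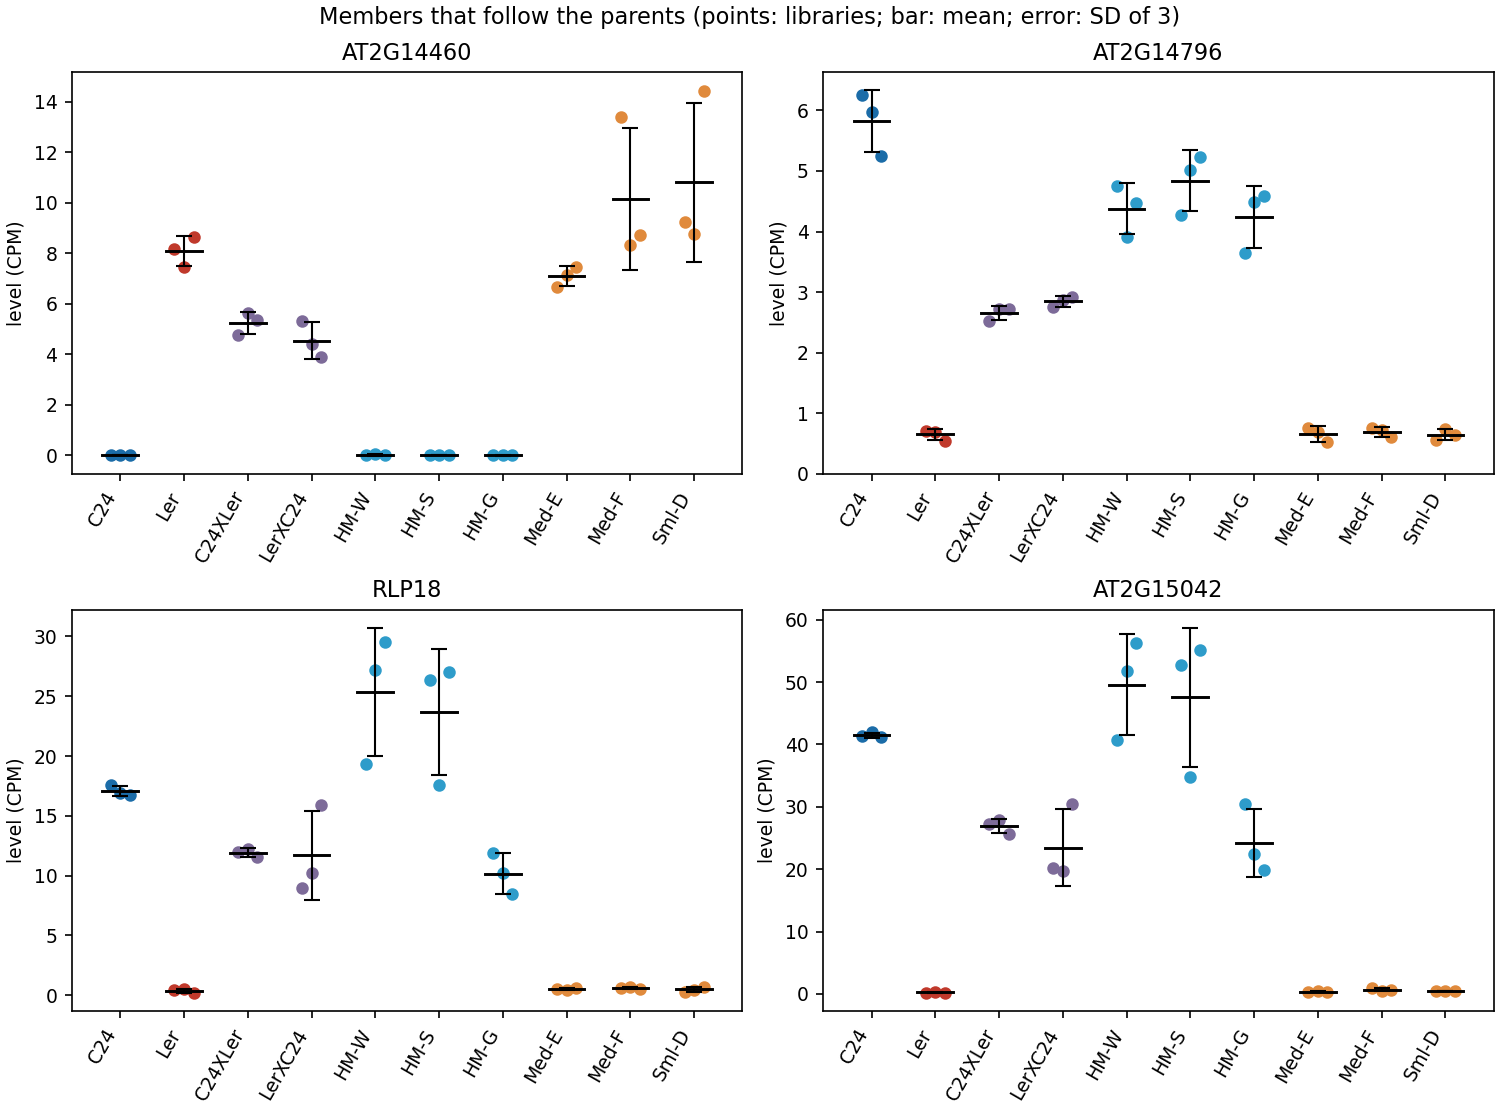
Levels in CPM (vertical axes) of AT2G14460, AT2G14796, RLP18 and AT2G15042 in the 10 lines. Points are libraries, bars the mean and error bars the SD of 3. The 9 other F6 libraries lie near Ler in each panel, the mimics lie near C24 for AT2G14460, and HM-G sits near the F1 hybrids for RLP18 and AT2G15042.

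Over the 84 tested members, all 9 mimic libraries lay above all 9 other F6 libraries in 13 members, where 2.63% of all tested genes did so, and below them in 9 members, where 2.28% did so. The choice of the stretch used this contrast, so nothing is read from these counts. Of the 13 that were higher in the mimics 11 are annotated pseudogenes, and of the 9 that were lower 3 are. A run of 10 low-level members at the left end, from AT2G14310 to AT2G14415, held 8 of the 13. AT2G14410, annotated as a pseudogene of a myosin heavy chain-like protein, was at 0.725 ± 0.132 CPM in C24 and 0.179 ± 0.0259 in Ler, with mimic libraries at 0.621 to 0.855 CPM and other F6 libraries at 0.115 to 0.334 CPM. AT2G14320, a pseudogene with a near-identical match elsewhere in the genome, was at 0.246 ± 0.0676 CPM in C24, 0.0253 ± 0.0099 in Ler and 0.320 to 0.558 CPM in the mimic libraries.

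With the 3 libraries of each line summed and 3 mimic lines set against 3 other lines, 12 of 89 members were called higher and 6 lower (edgeR's quasi-likelihood test, Benjamini-Hochberg adjusted p under 0.05). Over all genes 1.48% were called, 0.805% higher and 0.678% lower. Between the parents 23 of 84 members were called higher in C24 and 11 lower, where 13.3% and 12.5% of all genes were. Both contrasts chose the stretch, and their counts describe it.

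Parental position puts genes of both directions on one scale. It is the level of a library minus the Ler mean, divided by the C24 mean minus the Ler mean, so that 0 is Ler and 1 is C24. It was computed for parent-marked genes, those with a mean of at least 1 CPM in a parent, at least 2-fold between the parents and no overlap of their libraries. There were 8 such members, 3 higher in C24 (AT2G14796, RLP18 and AT2G15042) and 5 higher in Ler (AT2G14460, AT2G14475, AT2G14490, LURP1 and AT2G14570). In 4 of the 8 all 9 mimic libraries were nearer C24 and all 9 other F6 libraries nearer Ler, where 1.75% of the 1542 parent-marked genes on the 5 chromosomes had that pattern. RLP18 and AT2G15042 missed it through 1 library, HM-G replicate 3, at positions of 0.481 and 0.474. The mean positions of HM-G were 0.586 ± 0.104 and 0.581 ± 0.134.

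Genes outside the range also split the lines. Of the nearest 50 parent-marked genes on the left 2 had the pattern, and of the nearest 50 on the right 5 had it, against 16 of 1326 on the other chromosomes. Just outside on the left, AT2G14285 was at 6.32 ± 0.949 CPM in C24 and 0.211 ± 0.0643 in Ler, and its line means were 6.28 to 6.78 CPM in the 3 mimics and 0.0918 to 0.122 CPM in the other F6 lines. PIP, a proline iminopeptidase gene near it, had mean positions of 1.064 in HM-W, 1.014 in HM-S and 1.084 in HM-G, against 0.004 in Med-E, 0.001 in Med-F and, for Sml-D, -0.040. Further left HM-G parted from the mimics, with a mean position of 0.310 at AT2G14090 and -0.118 at AT2G13750, where HM-S was at 1.033 and 0.996. On the right the other F6 lines parted at AT2G15160, whose level was 14.1 ± 4.55 CPM in Med-F, 8.26 ± 0.686 in Sml-D and 0.0725 ± 0.0439 in Med-E, against 11.2 ± 1.05 in C24 and 0.0818 ± 0.0366 in Ler. At the following marked gene, AT2G15250, the mean position was -0.032 for Med-E, 0.080 for Med-F and -0.072 for Sml-D.

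**Figure D2:**
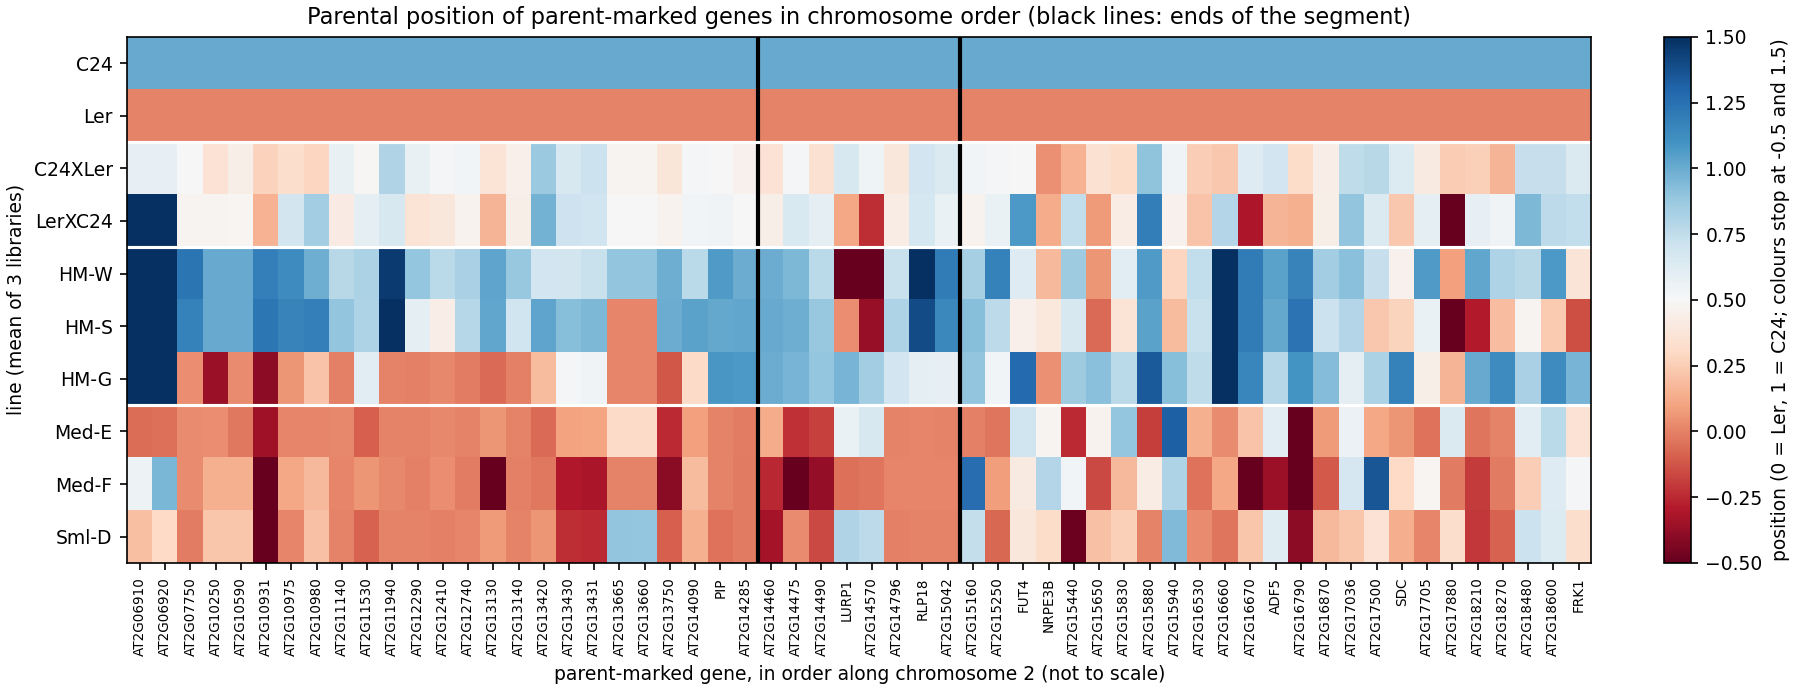
Mean parental position (colour, 0 for Ler and 1 for C24) of the 8 parent-marked members between the black lines and of the 25 nearest parent-marked genes on each side, in chromosome order, for the 10 lines. Within the black lines the mimics are blue and the other F6 lines red at AT2G14460, AT2G14475, AT2G14490 and AT2G14796. LURP1 and AT2G14570, which were not called between the parents, do not show the pattern.

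LURP1 and its neighbour AT2G14570 did not follow the split. Though parent-marked by the rule above, they were not called between C24 and Ler (edgeR adjusted p = 0.127 and 0.116). LURP1 is a defence gene named for its late induction in the response to a downy mildew pathogen. It was at 14.9 ± 5.79 CPM in C24 and 76.3 ± 37.3 in Ler, but at 41.4, 57.9 and 233.6 CPM in HM-W and 77.7, 23.7 and 121.4 in HM-S, lines that were near C24 at AT2G14460 and AT2G14475. Within Med-E its libraries were at 4.63, 10.7 and 108.9 CPM, and within Med-F at 6.21, 107.2 and 124.8. In both lines the highest library lay above every C24 library and the lowest below every Ler library. Replicate 3 was the highest in HM-W, HM-S, Med-E and Med-F and also in Sml-D (39.8 CPM). In HM-G it was replicate 1 (37.2 CPM). Whether a shared number marks a batch was not tested. AT2G14570, a pseudogene, was at 0.175, 0.219 and 2.41 CPM in the same Med-E libraries and at 1.35, 1.96 and 6.22 CPM in those of HM-W. LURP1 was not called among the mimics (edgeR's quasi-likelihood test, adjusted p = 0.195) or among the other F6 lines (adjusted p = 0.488). PRB1, a basic relative of the defence marker PR1, was at 1.67 to 10.13 CPM in the mimic libraries and 0.929 to 7.29 CPM in the other F6 libraries and was not called in any of the 5 tested comparisons.

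The F1 hybrids hold both alleles and were not used to choose the stretch, though the parents they are set against were. The median parental position of the 8 marked members was 0.518 in C24XLer and 0.552 in LerXC24, as the mean over the 3 libraries of each. RLP18 was at 11.9 ± 0.365 CPM in C24XLer and 11.7 ± 3.69 in LerXC24, which is a position of 0.691 ± 0.022 and 0.677 ± 0.221. AT2G15042 was at 27.0 ± 1.10 and 23.5 ± 6.12 CPM, and AT2G14460 at 5.25 ± 0.438 and 4.54 ± 0.724 CPM. For these 3 genes the 6 F1 libraries lay between the libraries of the parents with no overlap.

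The mid-parent on the log scale is the mean of the parents' fitted log2 levels. Against it 13 of the 84 tested members were higher in the F1 hybrids and 2 lower. Over all tested genes 11.5% were called, 7.1% higher and 4.45% lower. An F1 level midway between unequal parents lies above the log mid-parent, and the stretch was chosen on unequal parents. The count is thus in part fixed by that choice. Of the 15 called members 5 were parent-marked and not called against the arithmetic mid-parent, described below. The log2 difference was 2.94 ± 0.17 (± standard error) for AT2G15042, with an edgeR adjusted p of 7.73e-12, and 2.20 ± 0.18 for RLP18, with an adjusted p of 8.94e-09. That of AT2G14460 was 5.13 ± 0.36, a fitted value that depends on the prior count because C24 had no reads. Against the arithmetic mid-parent, the mean of the parents' linear levels, AT2G15042, RLP18 and AT2G14460 differed by 0.25 ± 0.14, 0.42 ± 0.16 and 0.26 ± 0.16, with limma-voom adjusted p-values of 0.26, 0.102 and 0.288, and without LerXC24 replicate A that of RLP18 was 0.0499. For genes with such unequal parents the log mid-parent lies far below the arithmetic one. AT2G15020 was called lower than the log mid-parent by -1.37 ± 0.45 (edgeR adjusted p = 0.0487), and without C24 replicate A the difference was -0.53 (adjusted p = 0.391).

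In all, 6 members were called higher and 1 lower than the arithmetic mid-parent, where 10.1% of all tested genes were called, 4.77% higher and 5.32% lower, and all 7 were also called against the log mid-parent. The median log2 difference over the tested members was 0.048, and over all tested genes it was -0.009. With the parents' counts added in pairs by replicate letter and tested in edgeR, 0 members were called, with 17 at an unadjusted p under 0.05 and 22 calls over all genes. Without C24XLer replicate B 4 members were called by limma-voom. AGP9, an arabinogalactan protein of the cell surface, was at 90.9 ± 10.2 CPM in C24 and 67.8 ± 10.6 in Ler, and at 87.1, 129.8 and 114.2 CPM in C24XLer and 123.9, 152.7 and 141.0 in LerXC24. Its F1 libraries exceeded the arithmetic mid-parent by a log2 difference of 0.64 ± 0.10 (limma-voom adjusted p = 0.00124), and 1 of the 6 lay within the C24 range.

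AT2G14900, a gene of the gibberellin-regulated GASA family, was at 7.44 ± 0.793 and 6.40 ± 0.824 CPM in C24 and Ler and at 8.08 to 13.3 CPM in the 6 F1 libraries, a difference of 0.66 ± 0.12 (limma-voom adjusted p = 0.00255). TBL13, of a family that acetylates cell wall polymers, was at 12.5 ± 0.322 and 10.01 ± 0.328 CPM in the parents and at 13.3 to 15.5 CPM in the F1 libraries, above every parent library, with a difference of 0.34 ± 0.07 (adjusted p = 0.005). RLP19 was at 63.4 to 90.4 CPM in the F1 libraries and differed by 0.56 ± 0.14 (adjusted p = 0.0158). The transcribed pseudogene AT2G15030 (0.66 ± 0.17) and the coding gene AT2G14800 (0.41 ± 0.12), which has a near-identical match elsewhere, were also called higher, and the pseudogene AT2G14940 was called lower by -0.45 ± 0.13. In limma-voom fits without 1 of the 12 parent and F1 libraries the call of AT2G14940 was lost in 9 (adjusted p up to 0.109), that of AT2G14800 in 7 (up to 0.076), AT2G15030 in 3 (up to 0.0721) and RLP19 in 1 (0.0602). With a clock index, described with the reciprocal crosses, as a covariate AT2G14940, AT2G14800, AT2G15030, RLP19 and TBL13 had adjusted p-values of 0.164, 0.0861, 0.179, 0.193 and 0.0543, and AGP9 and AT2G14900 were called. Of the 6 cell wall and surface genes of the stretch AGP9, AT2G14900 and TBL13 were called, all 3 higher, and XTH10, LTP and KCS8 did not pass the test.

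**Figure D3:**
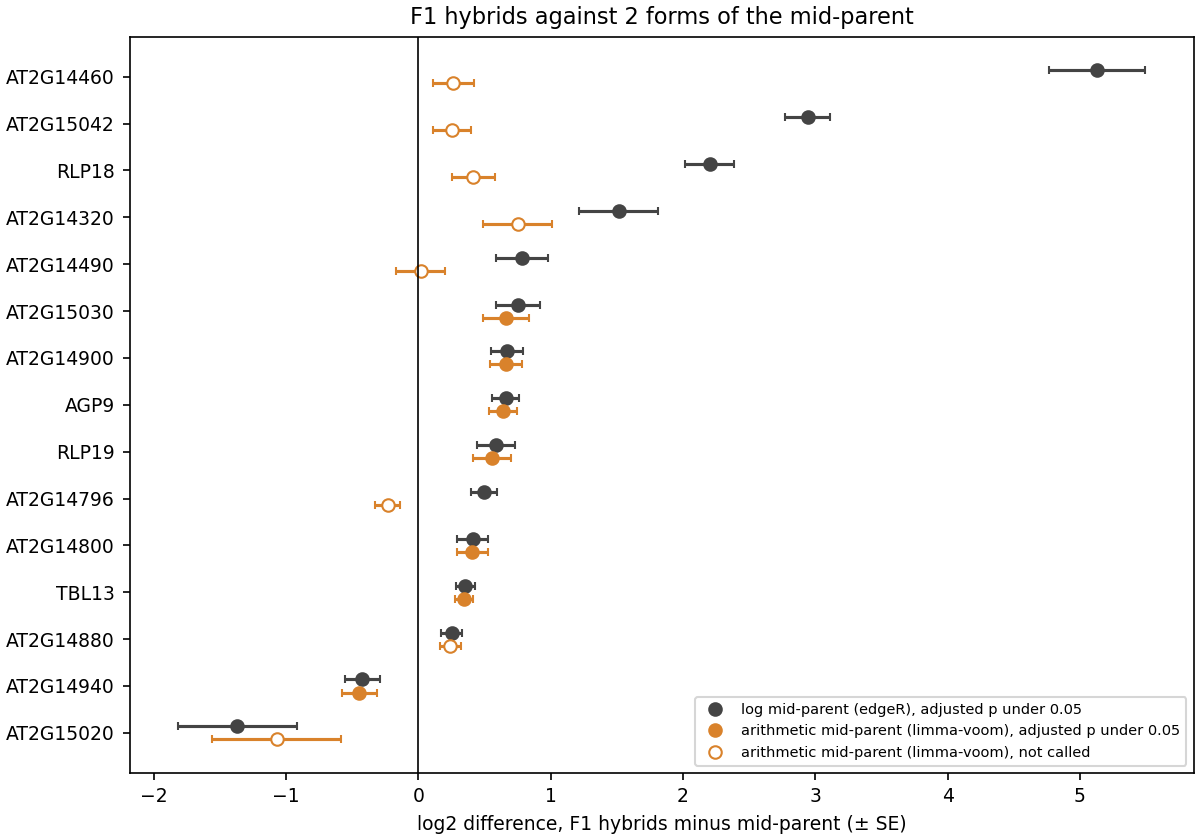
Log2 difference between the F1 hybrids and the mid-parent (horizontal axis, ± SE) for the 15 members called against the log mid-parent. Filled points are called and open points are not. AT2G14460, AT2G15042 and RLP18 lie at 2.20 or more against the log mid-parent and at 0.42 or less against the arithmetic one, while AGP9, AT2G14900, TBL13 and RLP19 hardly move between the 2 forms.

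The reciprocal crosses hold the same nuclear alleles, and their comparison asks whether the direction of the cross changed a member. C24XLer exceeded LerXC24 in 3 of the 84 tested members and fell below it in 0 by edgeR, where 4.91% of all tested genes were called, 2.34% higher and 2.57% lower. At an unadjusted p under 0.05, 14 members (16.7%) differed in either direction, where 19.3% of all tested genes did. DESeq2 called 2 members. APK makes activated sulfate for the sulfation of metabolites such as glucosinolates. It was at 157.3, 119.9 and 95.8 CPM in C24XLer and at 78.2, 52.6 and 26.5 CPM in LerXC24, with no overlap and a log2 difference of 1.25 ± 0.28 (edgeR adjusted p = 0.019). AT2G14760, a bHLH factor gene, was at 7.43, 4.56 and 3.60 CPM and at 3.12, 1.88 and 1.31 CPM, also with no overlap and a difference of 1.31 ± 0.32 (adjusted p = 0.0225). AT2G14810, which overlaps the counted gene NPY2, was at 0.376 to 0.408 CPM and at 0.105 to 0.237 CPM, a difference of 1.05 ± 0.30 (adjusted p = 0.0415).

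A clock index, the mean log2(CPM + 1) of the evening genes TOC1 and LUX minus that of the morning genes PRR9, LNK1 and RVE8, differed between the crosses as well. It was 0.024 ± 0.470 in C24XLer and 1.760 ± 1.097 in LerXC24. With the index as a covariate, an alternative chosen after the data were seen, the differences were 0.43 for APK and 0.48 for AT2G14760, and 0 members were called by edgeR, with 2 at an unadjusted p under 0.05. In a fit of the 6 F1 libraries alone edgeR also called 0 members, with 5 at an unadjusted p under 0.05, and 0 genes over the whole table. The count was 0 as well without replicate A or B of C24XLer or without replicate B or C of LerXC24, with 9 to 13 members at an unadjusted p under 0.05 in these 4 fits.

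Among the 3 mimics 10 of the 84 tested members were called, 11.9% where 19.4% of all tested genes were. The stretch was chosen with all 3 mimics on one side, so a low share here is in part fixed by that choice. Among the 10 called members the largest F statistics were those of RLP18 and AT2G15042. Against HM-W, RLP18 was lower in HM-G by a log2 difference of -1.32 and differed in HM-S by -0.10 (edgeR test on both contrasts together, adjusted p = 0.000235). For AT2G15042 the differences were -1.03 and -0.06 (adjusted p = 0.000499). The libraries of HM-G were at 11.9, 10.2 and 8.42 CPM for RLP18 and those of HM-W at 19.3, 27.2 and 29.6, with no overlap. HM-G replicates 1 and 2 were within the range of the F1 libraries (8.96 to 15.9 CPM) and replicate 3 was under it, while HM-W and HM-S exceeded C24 in every library.

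Further right on the chromosome, the pseudogene AT2G15070, a member under 1 CPM, differed from HM-W by -1.35 in HM-G (edgeR adjusted p = 0.00637) and RLP19 by -0.67 (adjusted p = 0.0381). LTP, a lipid transfer protein gene that lies between AT2G15042 and AT2G15070, differed by 0.28 (adjusted p = 0.0426). AT2G15060, a pseudogene that also lies there, was at 0.807 ± 0.172 CPM in HM-W and 0.724 ± 0.103 in HM-G and was not called. Among members elsewhere in the stretch, TBL13 differed by -0.37 in HM-G (adjusted p = 0.027), the auxin-conjugating enzyme gene GH3.1 by 0.50 (adjusted p = 0.0199) and AT2G14970, a pseudogene with a near-identical match elsewhere, by 0.35 (adjusted p = 0.0148). The low-level members AT2G14810 and AT2G15128 differed from HM-W in HM-S, by -1.84 and 1.31 (adjusted p = 0.00592 and 0.0326). In edgeR fits without 1 of the 9 mimic libraries the calls of RLP19, LTP and AT2G15128 were each lost in 6, with adjusted p up to 0.186, 0.176 and 0.161, that of TBL13 in 4 (up to 0.129), AT2G14970 in 3 (up to 0.0777) and GH3.1 in 2 (up to 0.108). With the clock covariate defined above, RLP19, LTP, TBL13 and GH3.1 had adjusted p-values of 0.173, 0.107, 0.076 and 0.06. The index was 1.662 ± 0.285 in HM-W, 1.461 ± 0.119 in HM-S and 0.765 ± 0.171 in HM-G. The clock and the line HM-G thus cannot be told apart in that fit. In a fit of the 3 mimics alone LTP, TBL13, GH3.1 and AT2G15128 had adjusted p-values of 0.0628, 0.0785, 0.0654 and 0.0676. RLP18, AT2G15042 and AT2G15070 were called in each of these fits, as was AT2G14810 save in that of the mimics alone, where its counts were too low for a test. Without HM-G replicate 2 the calls among the mimics dropped to 5.

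**Figure D4:**
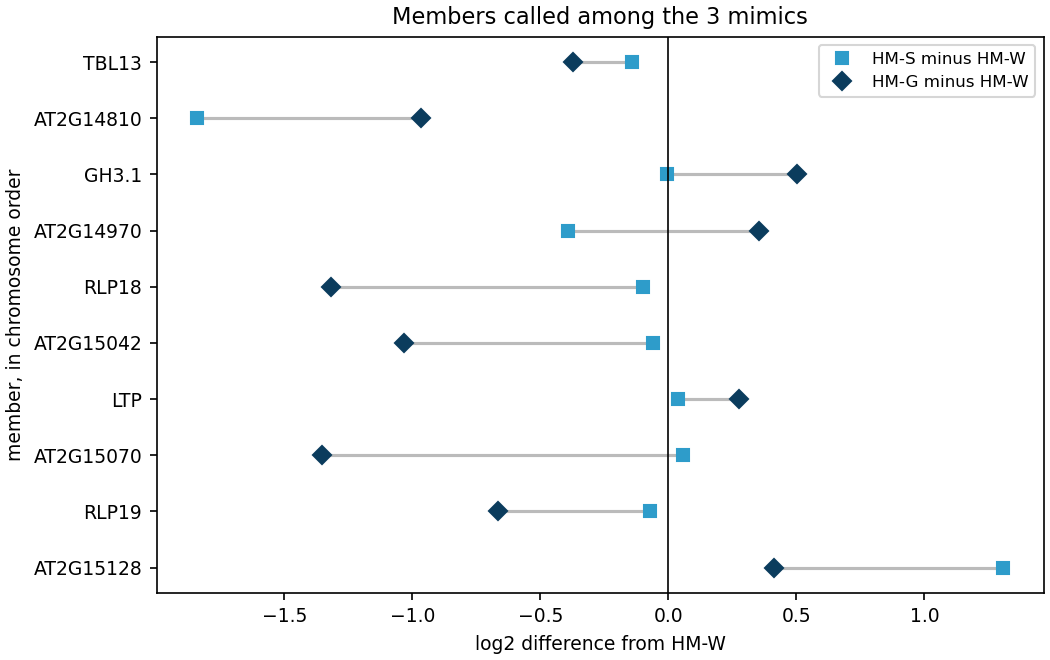
Log2 difference from HM-W (horizontal axis) of HM-S (squares) and HM-G (diamonds) for the 10 members called among the mimics, in chromosome order from top to bottom. HM-G lies at -1.32, -1.03 and -1.35 at RLP18, AT2G15042 and AT2G15070, where HM-S lies at -0.10, -0.06 and 0.06.

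Among the 3 other F6 lines 15 of the 84 tested members were called, 17.9% where 31.6% of all tested genes were. As for the mimics, this share is in part fixed by the choice of the stretch. RLP18 (edgeR adjusted p = 0.731) and AT2G15042 (adjusted p = 0.0572) were not called among these 3 lines. AT2G15042 was called there by DESeq2 (adjusted p = 0.0158) and by edgeR without Med-F replicate 2 (adjusted p = 0.0334). AT2G15020, an uncharacterized coding gene, was at 103.4, 80.1 and 43.8 CPM in Med-E and 39.8, 39.5 and 22.3 CPM in Sml-D, but at 2.43, 3.80 and 3.40 CPM in Med-F (adjusted p = 9.05e-05). APK was at 151.4 ± 16.0 CPM in Med-E, 139.9 ± 16.5 in Sml-D and 68.4 ± 7.89 in Med-F (adjusted p = 0.00582), and AT2G14760 was lower in Med-F than in Med-E by -1.13 (adjusted p = 0.0118). The clock index was -1.615 ± 0.429 in Med-E, -1.123 ± 0.080 in Sml-D and 0.962 ± 0.177 in Med-F. With it as a covariate in edgeR, AT2G15020, APK and AT2G14760 had adjusted p-values of 0.455, 0.883 and 0.902, and 7 members were called. Med-F differed from Med-E and Sml-D in the index by far more than the spread within a line. The clock and the line thus cannot be told apart in this fit.

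MEE13, a myosin heavy chain-like gene, and its overlapping neighbour AT2G14690, a putative xylanase gene, were higher in Med-F than in Med-E by log2 differences of 0.59 and 1.19 (edgeR adjusted p = 0.000171 and 5.4e-05). KCS8, of the enzymes that elongate very-long-chain fatty acids, was at 54.1 ± 7.90 CPM in Med-E, 79.9 ± 19.7 in Med-F and, for Sml-D, 83.2 ± 14.2 (adjusted p = 0.00508). The transcribed pseudogene AT2G15120, with a near-identical match elsewhere, was higher in Med-F than in Med-E by 1.73 (adjusted p = 0.000524). RLP19 was at 40.8 ± 15.7 CPM in Med-E, 58.4 ± 7.73 in Med-F and, for Sml-D, 33.4 ± 1.60 (adjusted p = 0.00919). With the clock covariate in edgeR, MEE13, AT2G14690 and RLP19 had adjusted p-values of 0.0809, 0.0566 and 0.29, while KCS8 and AT2G15120 were called. Here too the clock and the line cannot be told apart.

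APK, LTP, AT2G14760 and the low-level member AT2G15029 split the F6 lines while the libraries of the parents overlapped. APK was at 29.2 to 51.4 CPM in the mimic libraries and 60.4 to 164.7 CPM in the other F6 libraries, with parents at 87.4 ± 28.3 CPM in C24 and 96.5 ± 22.3 in Ler. LTP was at 24.3 to 32.9 CPM in the mimic libraries and 44.8 to 53.3 CPM in the other F6 libraries, with parents at 36.1 ± 2.61 and 38.1 ± 3.40 CPM. The mean clock index was 1.662 in HM-W, 1.461 in HM-S and 0.765 in HM-G. It was -1.615 in Med-E, -1.123 in Sml-D and 0.962 in Med-F, and its part in these splits was not tested.

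In AT2G15030 and AGP9 the parents differed in the same direction as the F6 lines, without overlap of their libraries, and F6 libraries lay beyond the parental range. AT2G15030, a transcribed pseudogene that overlaps AT2G15029, was at 1.08 to 1.59 CPM in C24 and 1.71 to 3.01 in Ler. Its mimic libraries ran from 0.233 to 0.691 CPM, under every C24 library, and its other F6 libraries from 4.67 to 9.45 CPM, above every library of Ler and of the F1 hybrids. AGP9 was at 79.9 to 100.1 CPM in C24 and 55.9 to 76.5 in Ler, with 117.8 to 157.9 CPM in the mimic libraries, above every C24 library, and 73.2 to 107.2 CPM in the other F6 libraries. Of the vacuolar sorting receptors, which carry proteins to the vacuole, VSR4 followed the parents, at 44.9 ± 2.58 CPM in C24, 72.0 ± 2.72 in Ler, 41.3 to 52.6 CPM in the mimic libraries and 63.1 to 75.4 CPM in the others. VSR3 was at 28.1 to 36.5 CPM in the mimic libraries and 28.4 to 37.3 CPM in the others.

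**Figure D5:**
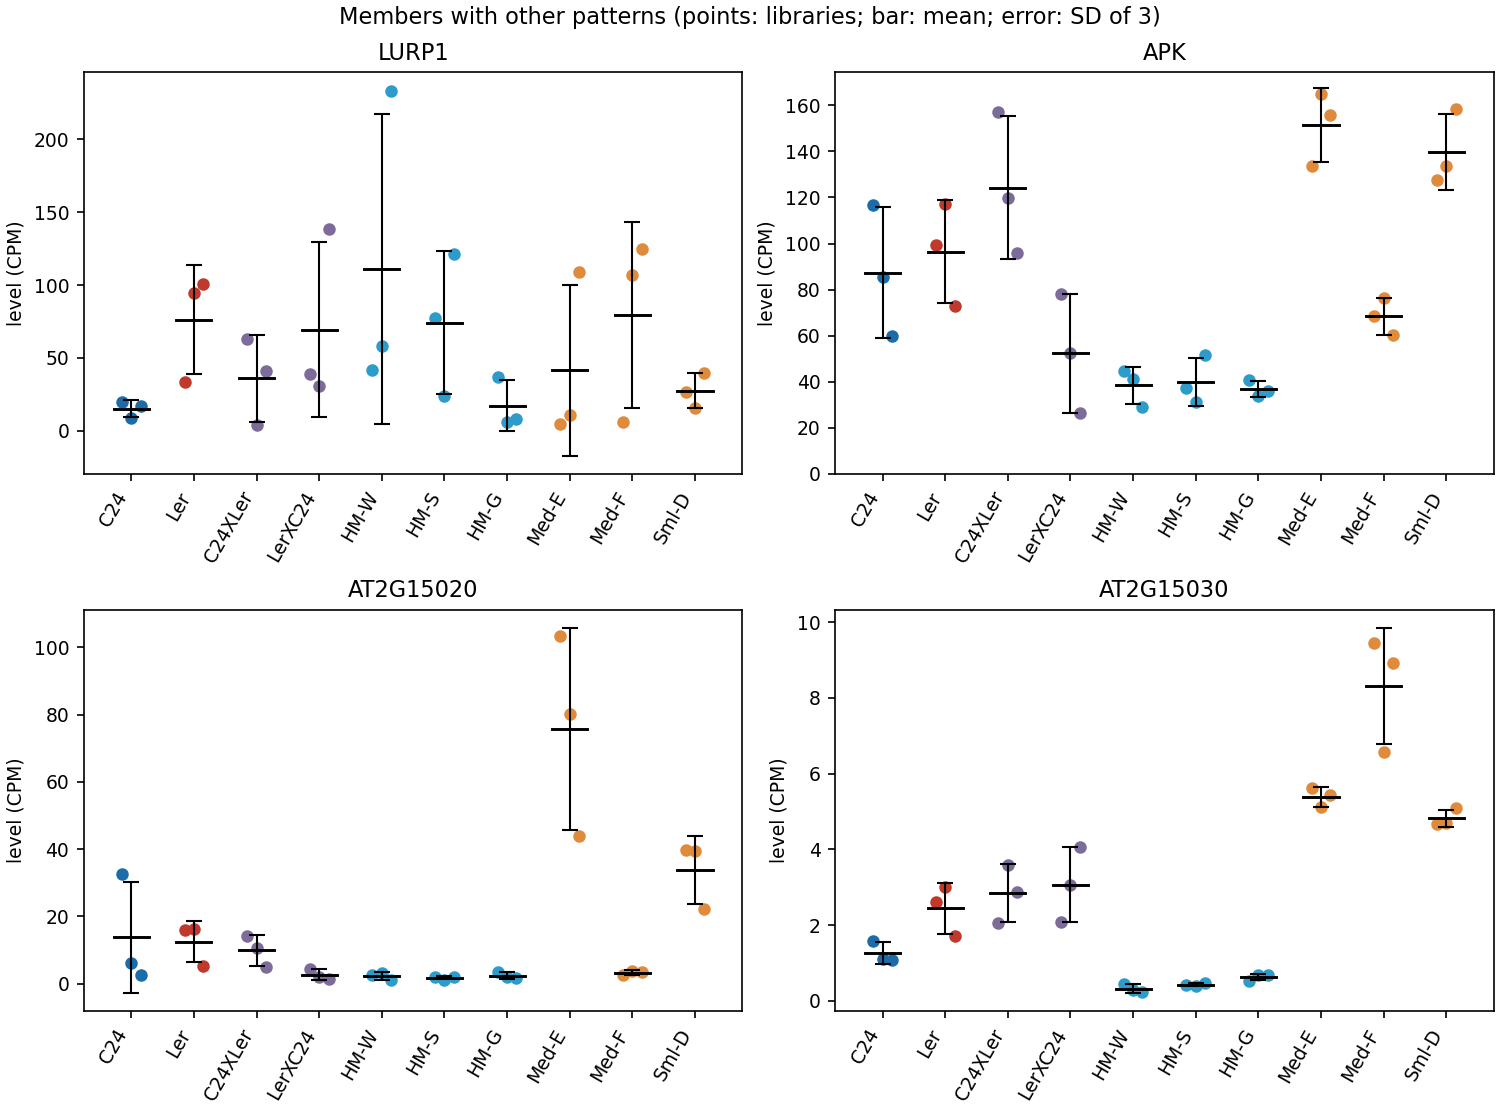
Levels in CPM (vertical axes) of LURP1, APK, AT2G15020 and AT2G15030 in the 10 lines. Points are libraries, bars the mean and error bars the SD of 3. LURP1 spreads from 41.4 to 233.6 CPM within HM-W, AT2G15020 is high in Med-E and Sml-D, and AT2G15030 lies above both parents in the 3 other F6 lines and below them in the 3 mimics.

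Of the rest of the receptor-like protein family, 54 genes outside the stretch were tested. Between C24 and Ler 12 were called higher in C24 and 9 lower. Against the log mid-parent the F1 hybrids were called higher in 4 and lower in 2, and against the arithmetic one higher in 3 and lower in 4. Over all tested genes 25.8%, 11.5% and 10.1% were called in these comparisons, against 38.9%, 11.1% and 13% of the 54. Between the reciprocal crosses 2 were called, both lower in C24XLer (3.7%, where 4.91% of all genes were). Among the mimics 20 were called (37%, where 19.4% of all genes were) and among the other F6 lines 16 (29.6%, where 31.6% were). With the libraries of each line summed, edgeR called 0 of the 54 between the mimics and the other F6 lines, with 7 at an unadjusted p under 0.05. Over all genes of that test 1.48% were called and 19.9% had an unadjusted p under 0.05. Of the 5 leucine-rich repeat genes inside the stretch 4 were tested. RLP18, AT2G15042 and RLP19 were called among the mimics, the last of them in only 3 of the 9 fits without 1 library, and RLP19 and AT2G14440 among the other F6 lines. AT2G14440, a leucine-rich repeat kinase gene, had 0 counts in the 3 Med-E libraries and was at 0.376, 0.254 and 0.254 CPM in Med-F, and AT2G14510, a kinase gene of the same kind, was too low to test.

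The genes most like RLP18 were ranked by Pearson's r of the 10 line means of log2(CPM + 1), which share their libraries. Inside the stretch AT2G15042 stood at 0.997, AT2G14796 at 0.968 and AT2G14860, a peroxisomal membrane protein gene, at 0.931. Outside it the 5 highest were AT5G35344 at 0.984, the selenoprotein-like gene SELT on chromosome 3 at 0.979, AT2G14285 at 0.971, AT2G15250 at 0.970 and the zinc finger gene AT5G63260 at 0.968. AT5G35344 was at 3.20 CPM in C24 and 0.115 in Ler, and its line means were 3.26 to 4.74 CPM in the 3 mimics and 0.0798 to 0.142 CPM in the other F6 lines. SELT was at 12.5 CPM in C24 and 6.22 in Ler. AT2G14285 and AT2G15250 flank the stretch on the left and right.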

How the data were processed

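RNA was measured by mRNA sequencing in 30 libraries of 10 lines, with 3 libraries each, grouped by the labels. Per the file headers and the values, the deposited gene table holds raw counts per gene, whole numbers without normalization, and the deposited depth table gives total reads. The build TAIR10 and the tools FastQC and DESeq are named, per the submitters' processing notes. Aligner, read counter and strand setting are not given in the sources used, so reads of overlapping genes cannot be told apart.

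The software was edgeR 4.0.16, limma 3.58.1 and DESeq2 1.42.0 under R 4.3.3. filterByExpr with a minimum count of 10 kept 29268 genes, TMM factors ran from 0.943 to 1.08, and the 10 lines were coefficients of 1 quasi-likelihood fit over the 30 libraries. Gene counts summed to 46822397 to 60757656 a library, which in every library was more than its total reads. The sources used do not say how this arose, and whether reads were counted more than once was not tested. Calls were made where the p-value, adjusted after Benjamini and Hochberg over the genes tested, was under 0.05. The arithmetic mid-parent was tested with limma-voom, with a standard error by the delta method. The comparisons among lines tested 2 contrasts together. Positions, biotypes and sequences came from TAIR10.1, and matches elsewhere from blastn 2.17.0. The tests were checked on simulated counts that had the same spread setting for all genes and no effect shared by replicates. That check does not cover genes with a wider spread, such as LURP1.

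Replicate numbers were not taken to pair the samples. Libraries of a line were compared with a chi-square test of their counts, and the lowest value was 7.65 per degree of freedom, so none was counted as a repeat. The genes named are RLP18, AT2G15042, the parent-marked members with a mean of at least 2 CPM, up to 5 called members of at least 1 CPM with the largest change in each tested comparison, and members of short role lists. Members named beyond this rule, among them AT2G14320, AT2G14410, AT2G14570, AT2G14800, AT2G14810, AT2G14860, AT2G15060, AT2G15070 and AT2G15128, and the genes around the stretch, were chosen after their values were seen. The members and lists were chosen with earlier results of these data known. The 7 members that were not tested are AT2G14510, AT2G14605, AT2G14635, AT2G14846, AT2G14870, AT2G15010 and AT2G15016. Alternatives were RLE normalization, no filter, DESeq2, fits of the compared lines alone, a replicate block, leaving out each library, a count minimum of 1000 and a clock covariate.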

Additional observations from a re-analysis of the deposited data

Results flagged for a closer look

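The effect of the cross differed between the reciprocal F1 hybrids in 3 members, by the contrast of C24XLer with LerXC24 in edgeR's quasi-likelihood test. That is 3.57% of the 84 tested members, where 4.91% of all tested genes were called. The log2 difference was 1.25 for APK, 1.31 for AT2G14760 and 1.05 for AT2G14810, and in each the 3 C24XLer libraries lay above the 3 LerXC24 libraries. The clock index differed between the crosses as well, at 0.024 ± 0.470 and 1.760 ± 1.097, and with it as a covariate the differences were 0.43, 0.48 and 0.65, none of them called. In an edgeR fit of the F1 libraries alone the adjusted p-values were 0.21, 0.199 and 0.225. In the 6 fits without 1 F1 library the calls of APK and AT2G14760 were each lost in 4 and that of AT2G14810 in 5.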

How the results depend on the processing

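Under RLE normalization, no filter, DESeq2, the replicate block and a minimum of 1000 counts, each of the 5 counts of called members stayed within 1.5 times of its value (DESeq2 was not run against the arithmetic mid-parent). Fitted on the compared lines alone, 4 members were called against the arithmetic mid-parent, 0 between the reciprocal crosses and 6 among the mimics. With the clock index as a covariate, chosen after the data were seen, the count was 9 for the log mid-parent and 2 for the arithmetic one. It was 0 between the crosses, 7 among the mimics and 7 among the other F6 lines. Among the F6 lines the clock and the line cannot be told apart. Against the log mid-parent AT2G15020 turned from -1.37 to 0.25 with this covariate. With parental counts added in pairs, 0 were called against the arithmetic mid-parent, and all 22 calls over the table lay elsewhere. That fit differed in several ways: edgeR in place of limma-voom, fewer parental values and no F6 libraries. The causes of these shifts were not tested. Leaving out 1 library gave 11 to 15, 4 to 9 (4 without C24XLer replicate B), 0 to 4, 5 to 10 (5 without HM-G replicate 2) and 13 to 21 calls against the log and the arithmetic mid-parent, between the crosses, among the mimics and among the other F6 lines. Without C24 replicate A, AT2G15020 fell to -0.53 against the log mid-parent and was no longer called.

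The median parental position of C24XLer was 0.445 with a 1.5-fold rule, and without 1 parent library it ran from 0.427 to 0.573 in C24XLer and from 0.471 to 0.553 in LerXC24. Same-letter libraries of the parents and F1 hybrids correlated at -0.083 to 0.311 in their deviations, with 7 of 18 pairs over 0.1. Same-number F6 libraries correlated at -0.243 to 0.178, with 4 of 45 pairs over 0.1. Whether a shared letter or number marks a batch was not tested. The replicate block gave 15, 8, 4, 9 and 15 calls in the 5 comparisons, and LTP among the mimics had an adjusted p of 0.0504 in edgeR under it. Of 894 values of single members under the alternatives 729 kept their direction and side of the threshold, 161 lost their call, 3 gained one and 1 reversed. Depth limits members under 1 CPM, where few reads stand behind a value.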

Other observations

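The thionin gene AT2G15010, of a family of small antimicrobial peptides, was at 7.97 CPM in Med-F replicate 2 and at no more than 0.0598 CPM in any other library. It was too low to be tested and was named after its values were seen.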
